A study of Drosophila melanogaster with 37 samples.

Results

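CLAMP sites of control cells that lay on the large autosomal arms, away from the GAGA factor (GAF) and from the male-specific lethal protein MSL3, numbered 746 of 2751 CLAMP control sites (27.1%). They were read from peak lists of chromatin immunoprecipitation (ChIP-seq) in S2 cells, an embryo-derived male line of Drosophila melanogaster. A control site of an antibody is a set of peaks that overlap by at least 1 bp and that come from 2 or more libraries treated with dsRNA against GFP, which has no target in these cells. The 746 sites were chosen by their control peak calls, as the CLAMP control sites on 2L, 2R, 3L and 3R that share no base with any of the 3219 GAF control sites or the 14324 MSL3 control sites. All cells received 4.5 ug/mL of dsRNA, against GFP, against trl (the gene of GAF) or against CLAMP, and chromatin was precipitated with rabbit anti-CLAMP, rabbit anti-GAF or goat anti-MSL3. The lists comprised 3 CLAMP, 3 GAF and 4 MSL3 libraries under GFP RNAi, 2, 2 and 3 under GAF RNAi, and 2, 3 and 3 under CLAMP RNAi.

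CLAMP has zinc fingers with which it recognises GA-rich sequence. It is best known for bringing the MSL complex to X in males, where that complex raises transcription for dosage compensation, yet it also binds many autosomal sites. GAF, the product of Trithorax-like, is a second GA-binding protein that acts at many promoters and opens chromatin there. MSL3 is a chromodomain subunit of the MSL complex, which has its main territory on X, so sites of CLAMP without GAF and outside MSL3 are those where neither partner was called reproducibly.

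The libraries differed in list length. CLAMP lists held 430 to 10984 peaks on the 6 main arms, GAF lists 2676 to 29233 and MSL3 lists 103 to 33316 regions, and the read depth is unknown. The CLAMP lists of CLAMP RNAi were the shortest, with 749 and 430 peaks. The GAF lists of the libraries labelled GAF RNAi held 4220 and 18267 peaks, within the wide range of the control lists (29233, 3543 and 2676). Their length alone therefore does not show whether GAF was depleted. At the 950 autosomal sites of CLAMP with GAF outside MSL3, they called 92.9% and 80.7%, against 94.9%, 93.3% and 96.9% in CLAMP RNAi. Control lists, which chose those sites, called 99.7%, 97.9% and 86.4%. A depletion of GAF was not tested. Control MSL3 replicate 4 stood apart: it covered 206 of the 746 sites, and without it the rule would have kept 890 sites. Labels do not say whether replicates were separate cultures, so the p-values below measure only the spread between these samples.

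The 746 sites were spread over all 4 arms, with 188 on 2L, 158 on 2R, 201 on 3L and 199 on 3R. Their density ran from 7.13 sites per Mb on 3R to 8.19 per Mb on 3L. They made up 43.8% of the CLAMP control sites of 2L and 34.5% of those of 3R, the highest and lowest share of the arms. Their median width was 415.5 bp (quartiles 323 and 569), against 542 bp for the 950 autosomal sites of CLAMP with GAF outside MSL3 and 334 bp for the 214 CLAMP-alone sites of X outside MSL3. The nearest GAF control site lay at a median of 7562 bp, and 152 sites (20.4%) had one within 1000 bp. The nearest other CLAMP control site lay at a median of 6896 bp, farther than the 2653 bp of the autosomal sites shared with GAF and the 3419 bp of the CLAMP-alone sites of X. These sites were thus narrower and more isolated than autosomal sites with GAF, as a description of the 3 sets with no test. The rule itself favours narrow sites, since a wide site shares a base with a GAF control site more readily.

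The name CLAMP-alone holds for the control sites, and less well for single lists. A GAF peak of at least 1 control list touched 187 of the 746 sites (25.1%), and for 180 of them the long list of control GAF replicate 1 held one. An MSL3 region of at least 1 control list touched 271 sites (36.3%). Separate regions of 2 control lists touched 1 site for GAF and 9 sites for MSL3. No GAF or MSL3 region of any control list touched 361 sites (48.4%), and no region of any of the 18 GAF and MSL3 lists of all conditions touched 164 sites (22.0%). These counts follow in part from the rule, which left out sites that overlap a GAF or MSL3 control site. Their shares over all CLAMP control sites were not computed, so they only describe the 746 sites. At the threshold of the rule, 297 sites had been called in 2 of the 3 CLAMP control lists with a median fold enrichment of 2.23. The 449 sites called in all 3 lists had 3.83, and 5781 autosomal regions that failed the rule, with 1 CLAMP control list each, had 1.77. Fold enrichment is the ratio of signal to background that the authors' peak caller gave within a library. These values chose the sites and are given as a description.

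CLAMP itself was called at most of the sites in the libraries labelled GAF RNAi and at few in CLAMP RNAi. The CLAMP lists labelled GAF RNAi called 91.6% and 81.5% of the 746 sites in replicates 1 and 2, and those of CLAMP RNAi called 21.2% and 13.5%. Control lists, which chose the sites, called 99.7%, 69.6% and 90.9% in replicates 1, 2 and 4 (background 99.6%, 73.7% and 91.5%). Both groups of RNAi libraries stood close to the background of all 2751 CLAMP control sites in the same lists, which was 90.1% and 81.5% for GAF RNAi and 25.1% and 15.1% for CLAMP RNAi. The mean was 17.4% ± 5.40 (SD, n = 2) after CLAMP RNAi and 86.5% ± 7.11 (SD, n = 2) in the libraries labelled GAF RNAi, a difference of -69.2 percentage points. The 2 groups did not overlap, and the exact two-sided permutation p was 0.333, the smallest that 2 against 2 libraries allow (adjusted over 8 tests 0.667). In lists of equal length, cut to the 430 peaks of lowest q of each library, the difference was 0.201 points and the groups overlapped, with 12.5% and 13.5% of the sites in CLAMP RNAi and 11% and 14.6% in the libraries labelled GAF RNAi. This cut gives every library the length of the shortest CLAMP RNAi list. It therefore cannot show a loss of CLAMP spread over all its peaks, and compares only which sites rank highest.

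**Figure D1:**
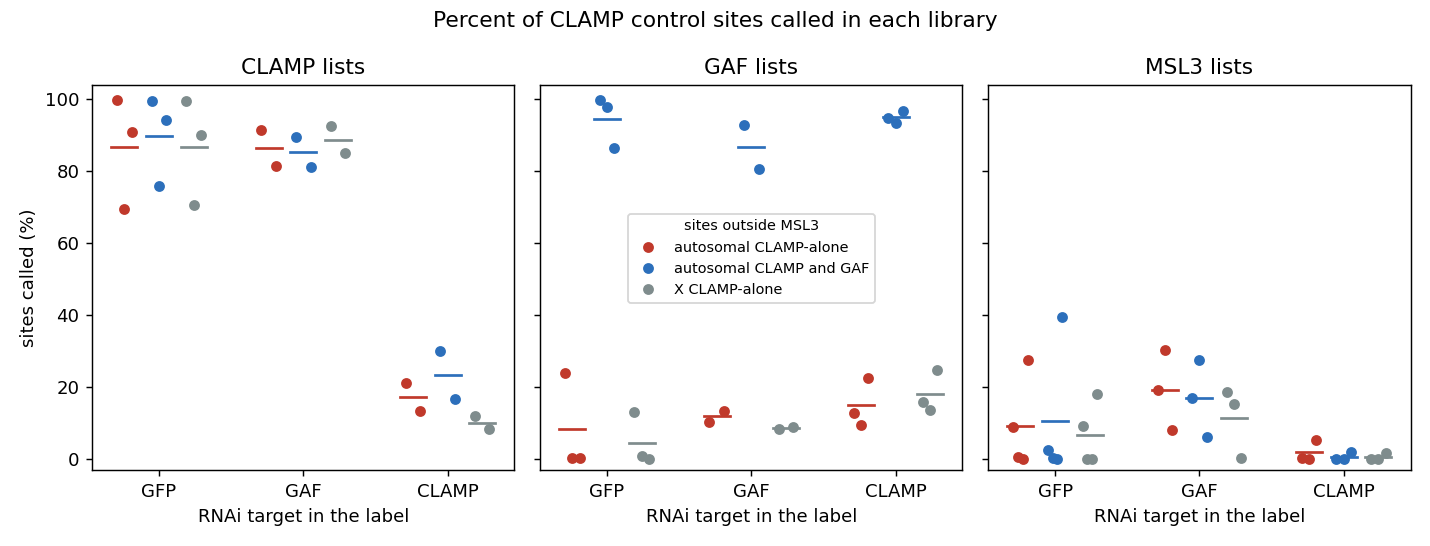
Percent of sites called in each library (points) with the mean of the libraries (bars), by antibody (panels) and RNAi target, for the 746 autosomal CLAMP-alone sites, 950 autosomal CLAMP and GAF sites and 214 X CLAMP-alone sites, all outside MSL3. CLAMP lists of CLAMP RNAi call 21.2% and 13.5% of the autosomal CLAMP-alone sites, and GAF lists call far fewer of them than of the shared sites in every condition, which the choice of sites fixes in the GFP RNAi lists.

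Sites called by CLAMP after its RNAi were mostly strong and wide ones of control cells, as were those in the equally short top of every other CLAMP list. Both CLAMP RNAi lists called 92 sites (12.3%, against a background of 14.0% of all CLAMP control sites), 1 list called 75, and neither called 579 (77.6%, background 73.8%). All 7 CLAMP lists called 88 sites (11.8%, background 13.5%). The median width was 703 bp, 597 bp and 372 bp in these 3 sets. When the sites were put into 5 bins by their mean rank of fold enrichment in control CLAMP lists, replicate 1 of CLAMP RNAi called 73.3%, 21.5%, 8.05%, 2.68% and 0% from the strongest to the weakest bin. Replicate 2 called 50.7%, 11.4%, 3.36%, 2.01% and 0%. In the libraries labelled GAF RNAi the weakest bin was called to 75.2% and 67.8%. With every list cut to 430 peaks, a comparison added after the data had been seen, the strongest bin was called to 48.7% and 50.7% in CLAMP RNAi, 46% and 46% in the libraries labelled GAF RNAi, and 44%, 60% and 55.3% in control. The weakest bin was then called to at most 1.34% in any library. The called sites of these cut lists had median widths of 798 and 699 bp in CLAMP RNAi and 627 to 829.5 bp in the other libraries, against 390 to 396.5 bp for uncalled sites. At equal length the CLAMP RNAi values of the strongest bin thus lay within the range of control lists. The ranks in those control lists had set the bins, so their shares are no independent yardstick. A wide site also meets an overlap of 1 bp more readily. At a q of at most 0.05 both CLAMP RNAi lists called 25 sites, with a −log10 q limit of 5 they called 0, and without CLAMP RNAi replicate 2 the other list alone called 158.

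Sites of autosomal CLAMP with GAF went through the same bins less steeply in CLAMP RNAi. In replicate 1 they were called to 71.7% in the strongest bin, about as often as the CLAMP-alone sites, and to 31.6%, 16.5%, 9.74% and 4.91% in the following bins. In replicate 2 the values were 42.9%, 16.9%, 7.39%, 5.19% and 1.23%. CLAMP-alone sites were therefore called more often than shared sites in the first bin, and less often in each of the 4 weaker bins, in both libraries. Over all bins, the CLAMP-alone sites minus the shared sites gave -9.03 and -3.20 points in CLAMP RNAi and 1.98 and 0.238 points in the libraries labelled GAF RNAi. Control lists gave 0.363, -6.22 and -3.43 points, so 2 of the 3 went the same way as CLAMP RNAi. The mean over the 4 libraries was -2.50 points (SD 4.85), with an exact two-sided sign-flip permutation p of 0.50 (smallest possible 0.125, adjusted over 8 tests 0.667). It was -0.475 points when sites were matched on control strength, a setting chosen after the data had been seen.

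**Figure D2:**
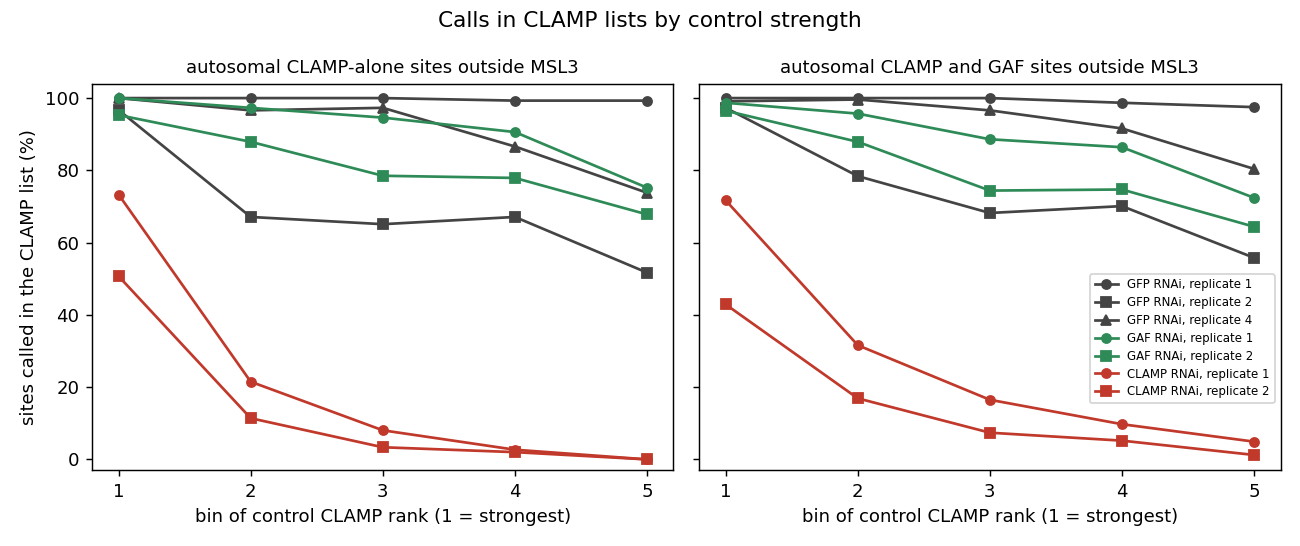
Percent of sites called in each CLAMP list (y axis) by bin of mean rank of fold enrichment in control CLAMP lists (x axis, 1 is strongest, bins set by quintiles of the CLAMP-alone sites), for autosomal CLAMP-alone sites (left) and autosomal CLAMP and GAF sites (right). In CLAMP RNAi replicate 1 the CLAMP-alone sites run from 73.3% to 0%, and in the libraries labelled GAF RNAi no bin of them falls below 67.8%. Lists are as deposited and differ in length (430 to 10984 peaks).

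Against CLAMP-alone sites of X outside MSL3, the autosomal sites were called more often by CLAMP after CLAMP RNAi. The autosomal minus X differences were 9.03 and 5.13 points there, -0.968 and -3.55 points in the libraries labelled GAF RNAi, and 0.199, -0.990 and 0.698 points in control lists. The X sites were called to 12.1% and 8.41% in CLAMP RNAi. In the strongest bin the X sites reached 54.1% and 40.5%, against 73.3% and 50.7% for the autosomal sites. Over the 4 RNAi libraries the mean difference was 2.41 points (SD 5.72, exact two-sided sign-flip permutation p 0.50, adjusted over 8 tests 0.667), which is within the spread between libraries. It was 6.01 points when control CLAMP replicate 1 was left out of the definition of sites and 0.205 points without CLAMP RNAi replicate 1.

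Among the 8 strongest autosomal CLAMP-alone sites 3L was the most frequent arm, and 3L also held 201 of all 746 sites. With 8 sites picked by control rank, this is a description only. The first by mean rank in control CLAMP lists was 2L 4809998 to 4810594 (build dm3), a site of 597 bp that no GAF and no MSL3 list called. Its CLAMP fold enrichment was 12.9, 9.0 and 7.53 in control replicates 1, 2 and 4, 17.7 and 4.32 in the libraries labelled GAF RNAi, and 8.60 and 4.78 in CLAMP RNAi. This site was thus still called where CLAMP was the RNAi target, at rank 23 of 749 and 41 of 430 peaks. The next were 3L 6735231 to 6736340 and 3L 14592570 to 14593090, then 3L 6598806 to 6599471 and 3L 10878274 to 10879405. The list of 8 ended with 3R 6490644 to 6491157, 3L 18611136 to 18611572 and 2R 3187952 to 3188825.

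All 8 were called in every CLAMP list labelled GAF RNAi, and 6 of the 8 in both CLAMP RNAi lists. The site at 3L 18611136 had ranks 41, 66 and 143 in the control lists and held rank 1 of 749 and 2 of 430 in CLAMP RNAi. Its fold enrichment there was 11.2 and 6.51, against 10.5, 7.25 and 6.25 in control. The sites at 3L 6735231 and 3L 10878274 were called in CLAMP RNAi replicate 1, with fold enrichments of 5.88 and 2.97, and not in replicate 2. Fold enrichment belongs to each library's own background, so these values order sites within a list and do not measure a change between lists.

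Sites with CLAMP in all 3 control lists and in neither CLAMP RNAi list numbered 285 of the 746 (38.2%). The background over all CLAMP control sites was 39.5%, so the share among autosomal CLAMP-alone sites lay near it. The count moved with list length: it was 4 in lists of equal length, 88 with a −log10 q limit of 5, and 510 without control CLAMP replicate 2, whose list is the shortest of the control lists. Lists of equal length cannot show a loss spread over all peaks of a library. Over sites free of any single control GAF or MSL3 region it was 144. The strongest of those that both libraries labelled GAF RNAi called were 2L 9158333 to 9158796, 3L 9127406 to 9127910, 3L 8978456 to 8978926 and 3R 25976152 to 25976642. At the first of them CLAMP fold enrichment was 9.15, 5.58 and 5.67 in control replicates 1, 2 and 4 and 8.41 and 8.87 in the libraries labelled GAF RNAi. Its ranks in the control lists were 105, 339 and 223 (mean 222), below those of the 8 strongest sites, whose mean ranks ran from 19.7 to 87.0. Only 1 autosomal CLAMP-alone site was called in all control lists and in neither library labelled GAF RNAi (0.134%, background 0.545%), and both those libraries called 580 sites (77.7%, background 78.0%), which was 49 in lists of equal length and 288 over sites free of any single control GAF or MSL3 region. Neither of them called 35 sites (4.69%, background 6.43%).

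Most CLAMP summits lay close to the control summit where the protein was called. Relative to the summit of control replicate 1, the median distance was 12.0 bp and 16 bp in control replicates 2 and 4, and 16 bp in both libraries labelled GAF RNAi. In CLAMP RNAi it was 11 bp in both replicates, over the 158 and 101 sites with a summit. At 155 of 158 and 96 of 101 sites the CLAMP RNAi summit was within 100 bp of the control summit, and at 657 of 681 and 566 of 607 sites in the libraries labelled GAF RNAi.

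GAF was called at a minority of the sites in every condition, and after CLAMP RNAi its summits lay closer to the CLAMP summit than in the libraries labelled GAF RNAi. GAF lists called 13.0%, 9.65% and 22.7% of the 746 sites in CLAMP RNAi replicates 1, 2 and 3, and 10.5% and 13.4% in the libraries labelled GAF RNAi. Control lists called 24.1%, 0.536% and 0.536% (background 59.3%, 48.4% and 41.5%), values that the rule held down because a site with GAF in 2 control lists was left out. The background of all CLAMP control sites was 52.7%, 50.3% and 57.8% in CLAMP RNAi and 49.3% and 44.3% in GAF RNAi. The groups overlapped, with means of 15.1% ± 6.75 (SD, n = 3) and 11.9% ± 2.09 (SD, n = 2) and a difference of 3.17 points (exact two-sided permutation p 1.00, adjusted over 8 tests 1.00). The difference turned to -0.603 points without CLAMP RNAi replicate 3. In lists of equal length (3059 peaks) the shares were 10.2%, 9.65% and 15.8% in CLAMP RNAi and 7.51% and 2.82% in the libraries labelled GAF RNAi, groups that did not overlap (difference 6.72 points, exact two-sided permutation p 0.200, the smallest possible, adjusted 0.320). As deposited, the GAF lists covered 1.14%, 1.06% and 2.12% of the autosomal arms in CLAMP RNAi. They covered 1.82% and 7.45% in the libraries labelled GAF RNAi, and 9.93%, 1.08% and 0.913% in control replicates 1, 2 and 3. The part of this coverage in the calls and in the summit distances was not tested beyond lists of equal length.

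The distance between summits separated the 2 RNAi conditions in every library. At sites with a GAF peak, the median distance of the GAF summit from the control CLAMP summit was 21.0, 18.5 and 29.0 bp in CLAMP RNAi replicates 1, 2 and 3, over 97, 72 and 169 sites. In the libraries labelled GAF RNAi it was 65.0 and 95.5 bp, over 78 and 100 sites, and in control replicate 1 it was 69.5 bp over 180 sites. Control replicates 2 and 3 had medians of 21.5 and 34.5 bp, over 4 sites each. The share of GAF summits within 50 bp of the CLAMP summit was 78.4%, 83.3% and 63.3% in CLAMP RNAi, and 48.7% and 34% in the libraries labelled GAF RNAi. The means of the medians were 22.8 bp ± 5.48 (SD, n = 3) and 80.2 bp ± 21.6 (SD, n = 2), a difference of -57.4 bp that was larger than the spread between libraries. The exact two-sided permutation p was 0.200, the smallest for 3 against 2 libraries, and the comparison was added after the data had been seen. With lists of equal length the difference was -43.5 bp, and over sites that no control GAF list called it was -76.8 bp. It was -37.8 bp when control GAF replicate 2 was left out of the definition of sites. In the equal-length list of control GAF replicate 1 the median was 38.0 bp over 38 sites, against 20.5, 18.5 and 24 bp in CLAMP RNAi and 67.0 and 62.0 bp in the libraries labelled GAF RNAi.

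The CLAMP-alone sites of X showed short distances in both conditions, with medians of 19.0, 14.0 and 20 bp in CLAMP RNAi over 34, 29 and 53 sites and 31.0 and 27.0 bp in the libraries labelled GAF RNAi over 18 and 19 sites. As at the autosomal sites, all 3 CLAMP RNAi medians were below both others. The same distances were also taken at autosomal sites of CLAMP with GAF. Their medians were 39.0, 40.0 and 48.0 bp in CLAMP RNAi and 50 and 61.0 bp in the libraries labelled GAF RNAi. Within a library, the CLAMP-alone minus the shared median was -18.0, -21.5 and -19.0 bp in CLAMP RNAi and 15 and 34.5 bp in the libraries labelled GAF RNAi. The difference between conditions was -44.2 bp (exact two-sided permutation p 0.200, the smallest possible). GAF peaks at CLAMP-alone sites were also weak ones, with a median fold enrichment of 3.65, 3.58 and 2.59 in CLAMP RNAi against 6.89, 5.21 and 6.41 at the shared sites of the same lists. In the libraries labelled GAF RNAi these medians were 1.90 and 2.27 against 4.32 and 4.86. The choice of sites favours this order, since the shared sites were those with GAF peaks in 2 or more control lists.

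**Figure D3:**
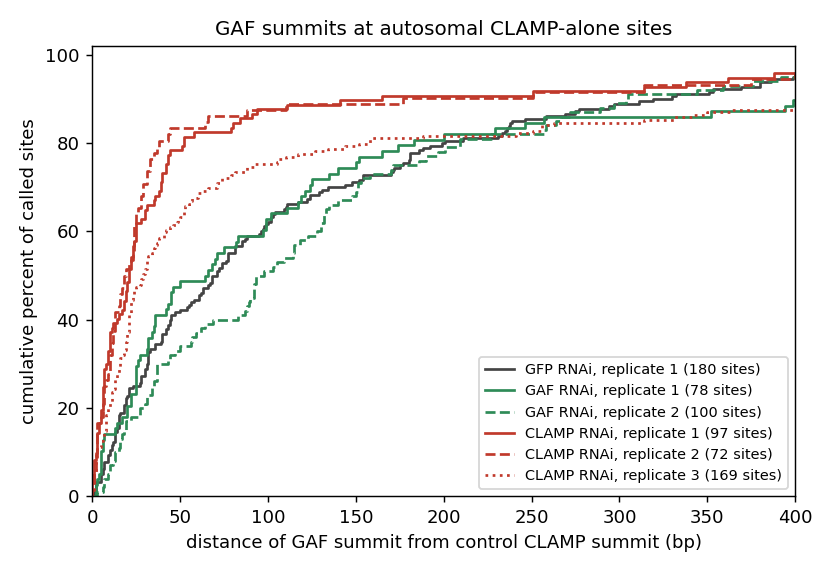
Cumulative percent of autosomal CLAMP-alone sites with a GAF peak (y axis) by distance of the GAF summit from the CLAMP summit of control replicate 1 (x axis, bp), 1 line per GAF library with at least 72 sites. The 3 CLAMP RNAi lines have medians of 21.0, 18.5 and 29.0 bp, below those of the other 3 lines (65.0, 95.5 and 69.5 bp).

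GAF was called by all 3 CLAMP RNAi lists at 59 of the 746 sites (7.91%, background 49.1%) and by both lists labelled GAF RNAi at 17 (2.28%, background 37.3%). Of the 59, 27 had a GAF peak in no control list (3.62% of the sites, background 2.33%), and 26 had none in either list labelled GAF RNAi (3.49%, background 3.27%). The converse, GAF in both lists labelled GAF RNAi and in none of CLAMP RNAi, was met by 5 sites (0.670%, background 0.509%). Among the 214 X CLAMP-alone sites, the shares that correspond to the 27 and the 26 were higher, at 7.94% (17 sites) and 7.48% (16 sites). The background of the 27 includes the 950 autosomal sites shared with GAF, which the rule keeps at 0 because each has a control GAF peak. The count of 27 was 54 without control GAF replicate 1, whose long list holds most single calls. It was 8 with a −log10 q limit of 5 and 13 over sites free of any single control GAF or MSL3 region. Sites with a CLAMP peak in both CLAMP RNAi lists were called by all 3 GAF lists of CLAMP RNAi in 14.1% (13 of 92), and sites with CLAMP in neither in 6.22% (36 of 579). For a call in any of these GAF lists the shares were 28.3% and 23.1%. The 2 sets differ in median width (703 and 372 bp), and the part of width was not tested.

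The first-ranked of the 27 sites was 2L 5472 to 6147, near the start of the arm. Its GAF fold enrichment was 11.6, 7.15 and 9.95 in CLAMP RNAi replicates 1, 2 and 3 and 2.13 in replicate 1 labelled GAF RNAi, with no peak in the other GAF lists. The GAF summits of CLAMP RNAi lay 1, 23 and 57 bp from the control CLAMP summit. CLAMP was called there in every list but CLAMP RNAi replicate 2. At 2L 11968881 to 11969205 GAF fold enrichment was 5.21, 6.92 and 7.23 with summits 30, 24 and 22 bp away, and no CLAMP RNAi list called CLAMP. At 3L 10690353 to 10690717 it was 6.47, 4.55 and 6.71 with summits 4, 11 and 0 bp away. The second-ranked site, 3R 11618900 to 11620473, was 1574 bp wide, and its GAF summits lay 843, 845 and 845 bp from the CLAMP summit, so sharing a site did not mean sharing a summit there.

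**Figure D4:**
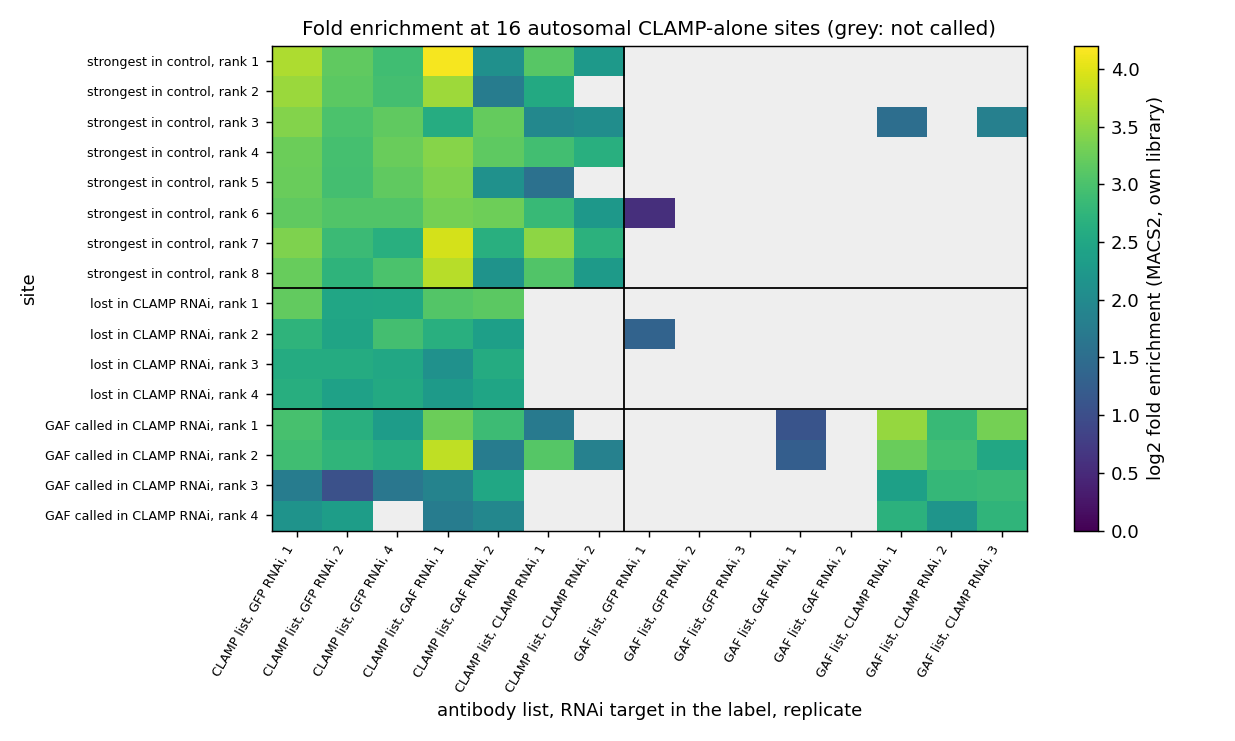
Fold enrichment on a log2 scale (colour, each library's own background) in 7 CLAMP and 8 GAF lists (columns) at 16 autosomal CLAMP-alone sites (rows): the 8 strongest in control, 4 called by CLAMP in control and GAF RNAi and not in CLAMP RNAi, and 4 called by all GAF lists of CLAMP RNAi and no control GAF list; grey is not called. The last 4 rows have GAF fold enrichments of 4.55 to 11.6 in the CLAMP RNAi lists.

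GAF calls were also compared between autosomal CLAMP-alone sites near GAF sites and far from them. Of the 152 sites within 1000 bp of a GAF control site, the libraries labelled GAF RNAi called 21.1% and 20.4%, and of the 594 sites farther away 7.74% and 11.6%. In CLAMP RNAi replicates 1, 2 and 3 the near sites were called to 13.2%, 5.92% and 30.9% and the far sites to 13.0%, 10.6% and 20.5%. Near sites were thus called more often than far sites in both libraries labelled GAF RNAi, while the CLAMP RNAi replicates differed in direction. The difference between conditions was not tested. Over the far sites alone the summit difference between conditions was -57.8 bp, close to that over all sites.

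Against X, GAF was called less often at the autosomal CLAMP-alone sites in all 3 CLAMP RNAi libraries. The X CLAMP-alone sites were called to 15.9%, 13.6% and 24.8%, so the autosomal minus X differences were -2.89, -3.90 and -2.11 points. In the libraries labelled GAF RNAi these differences were 2.04 and 4.53 points. Over the 5 libraries the mean was -0.465 points (SD 3.59, exact two-sided sign-flip permutation p 0.750, adjusted over 8 tests 0.857), within the spread between libraries. Its sign turned without CLAMP RNAi GAF replicate 1 (0.140), without replicate 2 (0.393) and without control MSL3 replicate 1 (0.0657).

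MSL3 regions reached the sites mainly in long lists. MSL3 lists labelled GAF RNAi called 19.2%, 30.4% and 8.04% of the 746 sites in replicates 1, 2 and 3, and those of CLAMP RNAi called 0.402%, 0% and 5.50%. Control lists called 9.12%, 0.804%, 0% and 27.6% in replicates 1 to 4 (background 21.5%, 11.2%, 7.42% and 36.2%). Over all CLAMP control sites, the background was 29.6%, 32.4% and 11.5% in the libraries labelled GAF RNAi and 1.38%, 0.473% and 9.34% in CLAMP RNAi. The groups did not overlap, with means of 19.2% ± 11.2 and 1.97% ± 3.06 (SD, n = 3 each) and a difference of -17.2 points (exact two-sided permutation p 0.100, the smallest possible, adjusted over 8 tests 0.267). List length moved with this result. The lists labelled GAF RNAi covered 27.6%, 27.3% and 20.3% of the autosomal arms and those of CLAMP RNAi 0.711%, 0.0371% and 12.3%, and the part of length in the result was not tested beyond lists of equal length. In those, the 103 strongest regions of each library touched 1 site in each library labelled GAF RNAi and 0 sites in each of CLAMP RNAi. With limits on q the difference between conditions was also far smaller. It was -0.268 points at a q of at most 0.05 and 0 with a −log10 q limit of 5.

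Within the 6 RNAi libraries, and with the lists as deposited, the MSL3 share at autosomal CLAMP-alone sites was never below that of the classes compared. Autosomal CLAMP-alone minus shared sites gave 2.12, 2.74 and 1.83 points in the libraries labelled GAF RNAi and 0.402, 0 and 3.39 points in CLAMP RNAi, with a mean of 1.75 points (SD 1.32, exact two-sided sign-flip permutation p 0.0625, adjusted over 8 tests 0.250). Control replicate 4 went the other way, with -12.0 points, and control replicate 1 gave 6.38. Autosomal minus X sites gave 0.477, 15 and 7.58 points in the libraries labelled GAF RNAi and 0.402, 0 and 3.63 points in CLAMP RNAi, with a mean of 4.52 points (SD 5.90, exact two-sided sign-flip permutation p 0.0625, adjusted over 8 tests 0.250). Neither difference passed after adjustment. Neither could have passed 0.05, since the smallest p of a sign-flip test over 6 libraries is 0.0312 before adjustment over 8 tests. The contrast with X turned to -0.478 points in lists of equal length, where replicates 1 and 3 labelled GAF RNAi called 0.134% of the autosomal sites each and 2.80% and 0.467% of the X sites. It was -0.567 points at a q of at most 0.05 and -0.0779 points with a −log10 q limit of 5, a limit at which the contrast with shared sites was -0.0175 points. With sites that no single control GAF or MSL3 list touched, the contrast with shared sites was -0.283 points.

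Few sites were called by MSL3 repeatedly. All 3 MSL3 lists labelled GAF RNAi called 11 sites (1.47%, background 5.60%), and no MSL3 list of CLAMP RNAi called 704 (94.4%, background 90.5%). Both conditions were met by 8 sites (1.07%, background 2.69%). Of the 746 sites, 401 were in none of the 6 MSL3 lists of the RNAi libraries, 246 in 1, 74 in 2, 20 in 3 and 5 in 4. The matching shares over all CLAMP control sites were not computed, so these counts only describe the 746 sites. The best-ranked of these 5 were 2L 9338663 to 9339251, 3R 25902131 to 25902707, 2L 12678321 to 12678601 and 3L 2888225 to 2888562. MSL3 fold enrichment at the first was 1.74 and 1.89 in replicates 2 and 3 labelled GAF RNAi and 1.69 and 1.29 in CLAMP RNAi replicates 1 and 3. The −log10 q of these regions was 0.333 and 0 in the libraries labelled GAF RNAi and 0 in both CLAMP RNAi libraries. Over the 4 named sites the highest −log10 q of any MSL3 region was 0.419, so all these calls were weak within their lists. None of these 4 sites was called by CLAMP in CLAMP RNAi, and their mean ranks in control CLAMP lists ran from 1900 to 6456. These ranks lay below those of the 8 strongest sites. Of the 8 strongest sites, 4 had an MSL3 region in no control list, and none had one in a CLAMP RNAi list.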

How the data were processed

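The authors deposited 1 peak list per library. The submitters' processing notes name MACS2 2.1.1, Bowtie without a version, and the build dm3. The MACS2 options and control are not given in the sources used here. The deposited lists give each region a fold enrichment (a ratio) and a −log10 p and −log10 q within its own library. CLAMP and GAF lists are narrow peaks with a summit (lowest −log10 p 1.30), and MSL3 lists are broad regions (lowest 1.00). The 25 lists come from 37 samples, and the 12 inputs were not analysed here. No read counts are given, so depth is unknown.

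Only regions on the 6 main arms entered, and 1.50% lay elsewhere. A site was called in a list if a region shared at least 1 bp with it. Where several regions did, fold enrichment is the highest and the summit that of lowest p. RNAi libraries, which the rule did not use, were compared with exact permutation tests over libraries, and classes of sites within libraries with exact sign-flip tests. Benjamini-Hochberg adjustment covers these 8 tests. Alternatives were lists of equal length, limits on q, 50% overlap, stricter sites, leaving out each library and the replicate number as a block. The sites and comparisons were chosen with earlier results of these data known. Sites were named by rank: the 8 strongest in control, 4 called by all control and GAF RNAi lists and no CLAMP RNAi list of CLAMP, 4 best-ranked by GAF among those called in all its CLAMP RNAi lists and no control list, and 4 called in most RNAi MSL3 lists. Coordinates are 1-based. Overlap counting was checked on 293 simulated sites with 0 disagreements. No dm3 sequence or annotation was used here, so no genes or sequences are given. Python 3.11.15, numpy 2.4.6, scipy 1.17.1 and matplotlib 3.10.9 were used.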

Additional observations from a re-analysis of the deposited data

Results flagged for a closer look

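In 3 contrasts between classes of sites, every library of CLAMP RNAi went one way and every library labelled GAF RNAi the other. In CLAMP lists, autosomal CLAMP-alone sites minus autosomal CLAMP and GAF sites averaged -6.11 points in CLAMP RNAi and 1.11 points in the libraries labelled GAF RNAi, a difference of -7.22 points (exact permutation p 0.333, n = 2 and 2). In the same lists, autosomal minus X CLAMP-alone sites averaged 7.08 and -2.26 points, a difference of 9.34 points (exact permutation p 0.333, n = 2 and 2). In GAF lists, autosomal minus X CLAMP-alone sites averaged -2.97 and 3.29 points, a difference of -6.25 points (exact permutation p 0.200, n = 3 and 2). Each p is the smallest its design allows, so none of these differences could pass 0.05. List length differs between the CLAMP libraries (749 and 430 peaks against 7524 and 7417). In lists of equal length (430 peaks) the opposite directions were not seen in CLAMP lists. Autosomal CLAMP-alone sites were called to 12.5% and 13.5% in CLAMP RNAi and 11% and 14.6% in the libraries labelled GAF RNAi. These shares lay below those of the shared sites (18% and 16.7%, 20.5% and 22.4%) and above those of the X sites (7.94% and 8.41%, 6.54% and 5.14%) in all 4 libraries. In GAF lists of equal length (3059 peaks) the autosomal share was below that of X in the 3 CLAMP RNAi libraries (10.2%, 9.65% and 15.8% against 15%, 13.6% and 20.1%). In the libraries labelled GAF RNAi it was 7.51% and 2.82% against 7.94% and 2.80%.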

How the results depend on the processing

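No comparison between RNAi conditions or site classes passed 0.05 after adjustment under any alternative run (smallest adjusted p 0.250). The number of libraries fixed this outcome. Only the sign-flip test over 6 libraries allows an unadjusted p below 0.05 (smallest 0.0312), and adjustment raises it above 0.05. With lists of equal length, CLAMP RNAi minus GAF RNAi in CLAMP lists was 0.201 points, autosomal minus X sites in MSL3 lists -0.478 points, and the counts of sites lost in CLAMP RNAi and called in both GAF RNAi lists 4 and 49. With a −log10 q limit of 5 the MSL3 difference between conditions was 0, the MSL3 contrasts with X and with shared sites were -0.0779 and -0.0175 points, and the sites lost, kept in both CLAMP RNAi lists and gained by GAF were 88, 0 and 8. At a q of 0.05 the MSL3 difference between conditions was -0.268 points, the MSL3 contrast with X was -0.567 points and 25 sites were kept. Sites called in all 3 control CLAMP lists numbered 449. Sites free of any single control GAF or MSL3 region numbered 361 (144 lost, 32 kept, 288 in both GAF RNAi lists, 13 gained by GAF), and their MSL3 contrast with shared sites was -0.283 points. The causes were not tested, except that stricter sets hold fewer sites or regions by construction. Lists cut to equal length also cannot show, by construction, a loss spread over all peaks of a library.

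Leaving out 1 library at a time, the difference between conditions ran from -74.2 to -64.1 points for CLAMP lists, -0.603 to 5.90 for GAF lists and -22.8 to -11.6 for MSL3 lists. The contrast with shared sites ran from -4.00 to -0.328 points for CLAMP lists and 1.12 to 3.79 for MSL3 lists. The contrast with X ran from 0.205 to 6.01 for CLAMP lists, -3.78 to 0.393 for GAF lists and 2.32 to 6.62 for MSL3 lists. The summit difference ran from -72.7 to -37.8 bp, the latter without control GAF replicate 2. Sites numbered 472 (without control CLAMP replicate 1) to 890, lost sites 285 to 510, kept sites 92 to 158, sites in both GAF RNAi lists 422 to 686, and sites gained by GAF 21 to 54.

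With the replicate number as a block, the differences between conditions were -69.2, -0.603 and -17.2 points for CLAMP, GAF and MSL3 lists. Correlations of the deviations of same-numbered libraries ran from -0.127 to 0.0210. They do not settle whether such libraries were prepared together, which the labels do not say. Lists without read counts leave the depth behind an uncalled site unknown.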
